A study of Musca domestica with 24 samples.

Results

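The 100 genes described here had more RNA in house flies raised at 18 °C than in flies raised at 29 °C, in heads and in testes and in both strains studied. They were selected on exactly that property. The candidates were the 5548 genes, of 16540 in the tables, that carry a LOC identifier, lie on Muller elements B, C, D or E and average at least 5 CPM over the 12 head and over the 12 testis libraries. CPM is a gene's count per megacount of its library, that is, its share of the library's total. For each candidate, log2 of the mean CPM at 18 °C over the mean CPM at 29 °C, with 0.5 CPM added to both, was taken in CSrab heads, IsoCS heads, CSrab testes and IsoCS testes. The 100 genes with the largest value of the smallest of these 4 ratios are the members. All temperature ratios of the members below are therefore descriptions with no test, and nothing is read from their direction.

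The series holds 24 stranded polyA RNA libraries of Musca domestica in 8 groups of 3 biological replicates. The tissues were testis and head, the developmental temperatures 18 °C and 29 °C, and the strains CSrab and IsoCS. By the series' design text the strains share 1 genetic background and differ in their proto-Y. The labels give neither the age of the flies nor the sex of the flies whose heads were used, and they do not say how many flies went into a library.

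Flies do not regulate their body temperature, and rearing temperature changes the rate of development, adult size and the expression of many genes. House fly males carry a young sex chromosome, or proto-Y, that holds the male-determining gene and exists in several forms. Published descriptions of these strains, not the labels, place the IIIM form in CSrab and the YM form in IsoCS. IIIM is chromosome III, which corresponds to Muller element A. Muller elements are the chromosome arms that fly genomes share, and genes on element A could not become members.

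No member has a gene name or a known product in the tables used here. The reference table held 98 of the 100 identifiers and gave 0 of them another symbol, so members are called by identifier and no role is assigned. Of 16540 genes in the tables, 97 have another name. These include 5 heat shock and chaperone genes, 8 cytochrome P450 and glutathione transferase genes and 5 serpin and inhibitor genes. None of these genes could be a member, since selection kept LOC identifiers only. Lists for cold and desiccation, clock, ribosome and odorant-binding genes found 0 genes by symbol.

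Total counts, in megacounts, lay between 15.7 and 28.4 in heads at 18 °C, between 23.4 and 35.7 in heads at 29 °C, between 14.9 and 33.0 in testes at 18 °C and between 21.2 and 40.01 in testes at 29 °C. The 18 °C libraries were thus shallower on average (means of 19.9 and 27.3 megacounts in heads at 18 °C and 29 °C, and of 21.7 and 29.9 megacounts in testes). Between 5.69 and 11.7% of a head library, and between 6.77 and 24.5% of a testis library, came from its 10 most abundant genes. Of 31 cell type markers searched for by symbol in 8 lists, 1 was found, the fat body gene yp3, so the tissue labels could hardly be checked by these lists. Chosen after its values were seen, pdf, which encodes a neuropeptide of clock neurons in Drosophila, had at most 0.150 CPM in testes and 4.89 to 23.3 CPM in heads. In such bulk samples, fewer cells of a type and less RNA per cell cannot be told apart.

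The members' median log2 ratio of 18 °C over 29 °C was 0.79 in CSrab heads, 0.87 in IsoCS heads, 0.69 in CSrab testes and 0.89 in IsoCS testes. Over all 5548 candidates the medians were 0.08, -0.13, 0.23 and 0.34. Most member differences were modest in size. A mean more than 2-fold higher at 18 °C, with the 0.5 CPM added as in the ratio, was seen for 32 members in CSrab heads, 41 in IsoCS heads, 24 in CSrab testes and 30 in IsoCS testes, and for 4 members in all 4 pairs. The smallest of a member's 4 ratios had a median of 0.56 and lay between 0.45 and 2.66. That smallest ratio fell in CSrab testes for 42 members, in IsoCS heads for 25, in CSrab heads for 22 and in IsoCS testes for 11.

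**Figure D1:**
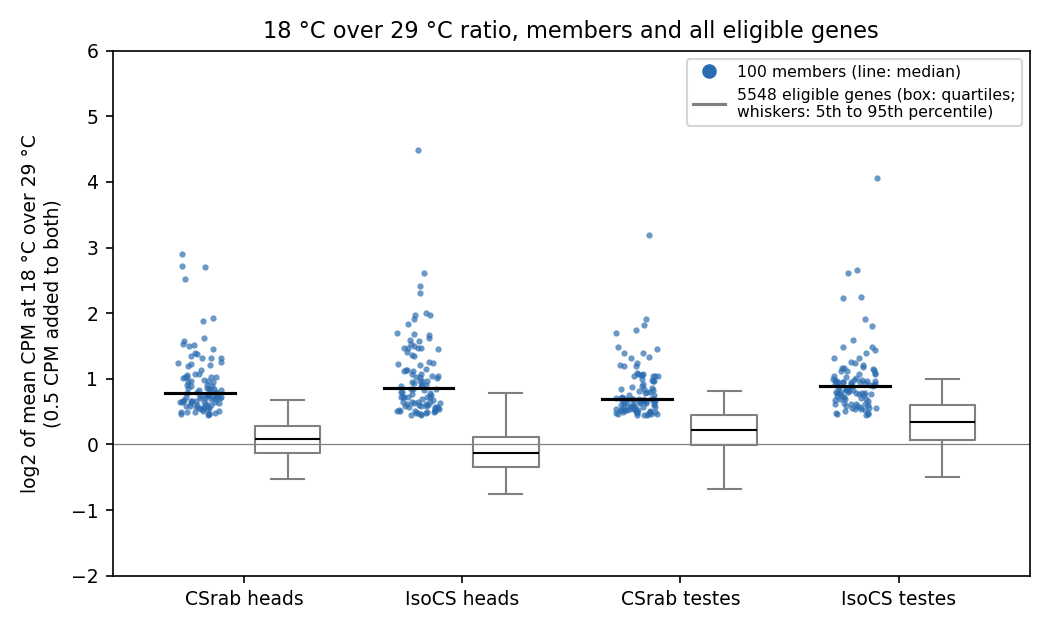
Log2 ratio of mean CPM at 18 °C over 29 °C in the 4 strain-tissue pairs, for the 100 members (points, line at the median) and all 5548 eligible genes (box at the quartiles, whiskers at the 5th and 95th percentiles). The members start at 0.45 because they were selected there, and most lie below 2.

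Scaling to column totals sets where no difference lies. With TMM library sizes, which centre most genes near no change, the median of all candidates was 0.00 in CSrab heads, 0.02 in IsoCS heads, -0.01 in CSrab testes and 0.06 in IsoCS testes. The shift from column totals exceeded 0.1 in IsoCS heads and in the testes of both strains. The members' medians on TMM sizes were 0.71, 1.01, 0.45 and 0.61 in the same order. Relative to all candidates, then, part of the members' testis ratio on column totals is shared by the whole table. All 100 members had a ratio above 0 in all 4 pairs with TMM sizes, with DESeq2 size factors and with libraries thinned to equal depth. The selection largely fixed this, since the lowest member ratio was 0.447 and the same counts were used. Nothing is read from it.

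Membership itself depended on scaling and on single libraries. Applying the same selection to TMM-scaled values took 61 of the 100 members again, and DESeq2 size factors took 57. Leaving out CSrab heads at 18 °C replicate 1 kept 67 members and lowered the members' median ratio in CSrab heads to 0.51. Without any 1 of the 24 libraries, 23 members were always kept, and 12 were kept under all 32 alternatives. Ratios at the limit were nearly continuous. The last members were LOC101900443, LOC101899769 and LOC101888221 with smallest ratios of 0.450, 0.447 and 0.447, and the first genes outside were LOC101894299, LOC101895457 and LOC101897256 with 0.446, 0.446 and 0.444.

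Of the 100 members, 20 lie on element B, 27 on C, 24 on D and 29 on E. The candidates divided as 20.6% on B, 26.1% on C, 22.7% on D and 30.6% on E, so the members followed the makeup of the candidates closely. They were spread over 89 scaffolds. On these, 20 members share a scaffold with another member, in 2 scaffolds that hold 3 members and 7 that hold 2.

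The share of a library's counts taken by the 100 members together varied widely among head replicates. In CSrab heads it was 3.19, 1.75 and 0.846% of counts in replicates 1 to 3 at 18 °C, against 1.58, 0.620 and 0.516% at 29 °C. IsoCS heads had 3.18, 1.56 and 3.18% at 18 °C and 0.747, 0.592 and 1.71% at 29 °C. The groups overlap in heads, since CSrab replicate 3 at 18 °C lies below CSrab replicate 1 at 29 °C and IsoCS replicate 2 at 18 °C lies below IsoCS replicate 3 at 29 °C. In CSrab testes the share was 0.794, 0.744 and 0.596% at 18 °C and 0.444, 0.503 and 0.349% at 29 °C. In IsoCS testes it was 0.807, 0.698 and 0.774% at 18 °C and 0.378, 0.310 and 0.543% at 29 °C. Testis groups did not overlap in either strain. Without the 10 members most abundant in heads, the shares were 1.41, 0.794 and 0.483% in CSrab heads at 18 °C and 0.699, 0.336 and 0.341% at 29 °C. In IsoCS heads they were then 1.44, 0.670 and 1.33% at 18 °C and 0.401, 0.378 and 0.785% at 29 °C, so the spread among replicates did not rest on a few abundant members.

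**Figure D2:**
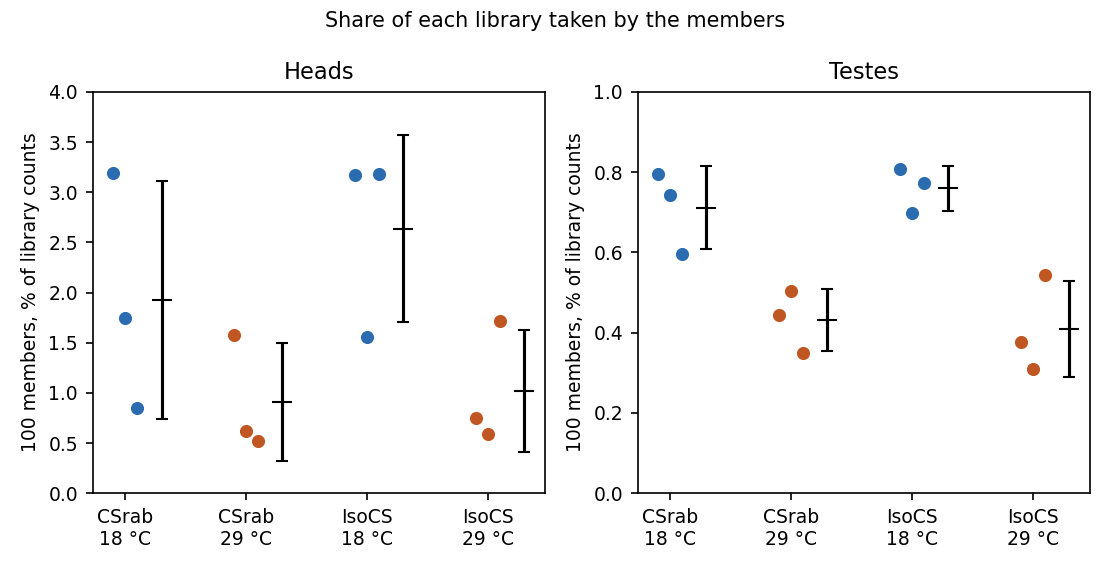
Percent of each library's counts taken by the 100 members together, in heads (left) and testes (right). Points are the 3 replicates in order, and bars give the mean ± SD. In heads the 18 °C and 29 °C libraries overlap in both strains (0.846 to 3.19% and 0.516 to 1.58% in CSrab), and in testes they do not.

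In heads, most members moved up and down together among replicates of a single group. The first axis of a principal component analysis of within-group deviations held 83.2% of the members' variance in heads, and 49.3% for all candidates. In testes it held 49.8% for the members and 44.0% for all candidates. Counting members above their own group's mean shows the same thing library by library. In CSrab heads 87, 57 and 10 members were above it in replicates 1 to 3 at 18 °C, and 87, 21 and 26 at 29 °C. In IsoCS heads 79, 13 and 84 were above it at 18 °C, and 19, 18 and 87 at 29 °C. In CSrab testes, replicate 3 stood apart at both temperatures, with 6 members above the mean at 18 °C and 6 at 29 °C. There the whole table moved likewise, with 18.3% of candidates above the mean at 18 °C and 21.0% at 29 °C. In CSrab heads at 18 °C replicate 3, by contrast, 10 members and 57.3% of candidates were above it. Selection drew on group means of these same libraries, which favours genes that share a high library at 18 °C. The contrast between members and candidates is therefore a description only.

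Of genes outside the selection, para-like was chosen after its values were seen to vary with this head pattern. This gene, named after the Drosophila voltage-gated sodium channel gene of neurons, had 75.0, 97.4 and 211 CPM in CSrab heads at 18 °C (replicates 1 to 3) and 149, 157 and 296 CPM at 29 °C. In IsoCS heads it had 105, 163 and 121 CPM at 18 °C and 261, 368 and 138 CPM at 29 °C. Testis libraries had 34.6 to 191 CPM of para-like, so its RNA was not limited to heads. In each of the 4 head groups the library with the least para-like RNA was one in which at least 79 members were above their group mean. The fat body gene yp3 did not follow the same order. It had 105, 531 and 622 CPM in CSrab heads at 18 °C and 478, 808 and 245 CPM at 29 °C, where it was lowest in replicate 3, with 26 members above their group mean. In IsoCS heads it had 349, 1053 and 431 CPM at 18 °C and 1187, 440.3 and 562 CPM at 29 °C. It ranged from 8.89 to 82.7 CPM in testes and from 105 to 1187 CPM in heads, and the other 3 fat body markers were not found by symbol. The part of head cell composition in the members' ratios was not tested.

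**Figure D3:**
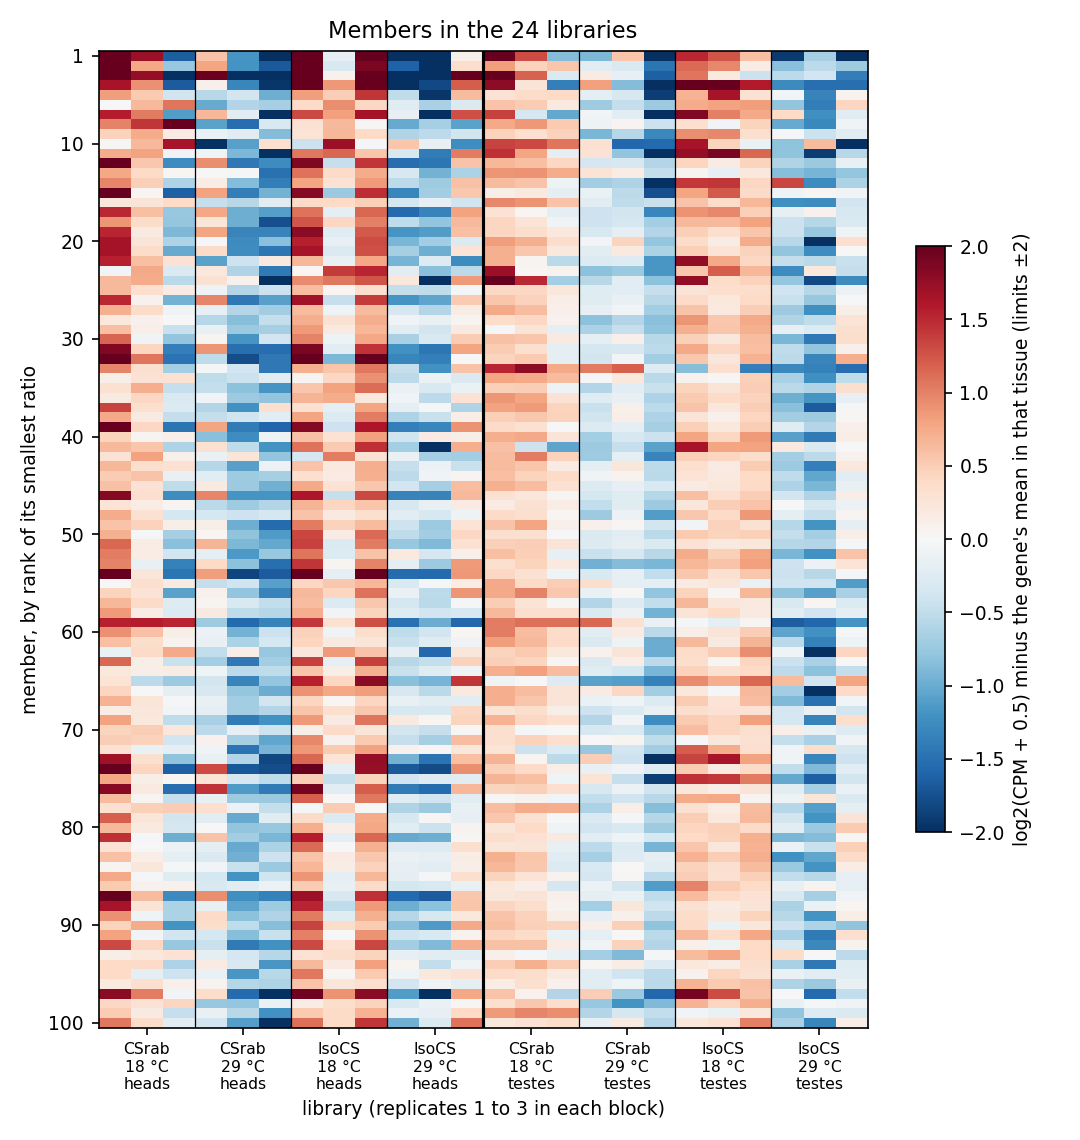
Log2(CPM + 0.5) of the 100 members minus each gene's mean in that tissue, in the 24 libraries (columns, replicates 1 to 3 in each block, 18 °C left of 29 °C), with members ordered by their smallest ratio. Head columns of 1 group differ, as in CSrab at 18 °C, where the members' median on this scale was 0.74, 0.32 and -0.38 in replicates 1 to 3. The colours also carry the temperature difference used in the selection.

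The members were also noisier than other genes in heads. The SD among replicates, pooled over the 4 head groups on the log2 scale, had a median of 0.54 for the members and 0.23 for all candidates, and it exceeded 0.5 for 54% of members and 13.5% of candidates. In testes the medians were 0.35 and 0.30, and 24% of members and 16.4% of candidates exceeded 0.5. Selection used the means of 3 libraries and set no limit on this spread. Taking the largest ratios of such means itself favours genes with a high library in a group, and so a large SD. The contrast in spread between members and candidates is therefore a description only.

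The 18 °C and 29 °C libraries of most members overlapped in at least 1 pair. Every 18 °C library was above every 29 °C library for 37 members in CSrab heads (12.2% of all candidates), 41 in IsoCS heads (5.12%), 71 in CSrab testes (27.6%) and 81 in IsoCS testes (30.2%). All 4 pairs were separate for 19 members (0.847% of candidates), and none was for 4. Selection fixed the direction of these counts, and nothing is read from them. The 19 genes ranked from 6 to 98 by smallest ratio. Their median head SD was 0.25, and that of the other members was 0.68, a difference that choosing genes without overlap itself favours.

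**Figure D4:**
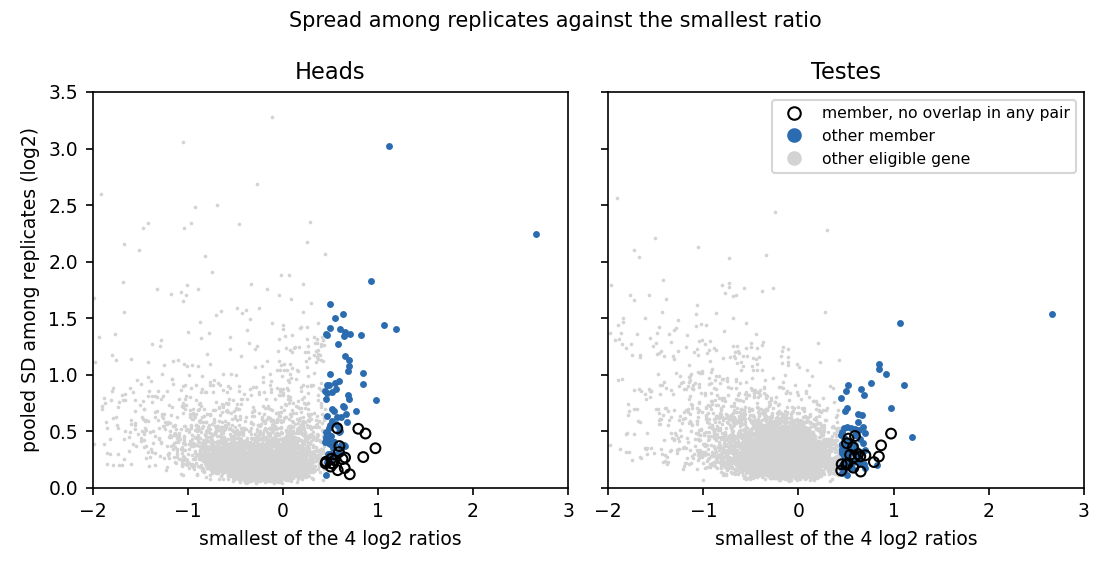
SD among replicates pooled over the 4 groups of a tissue (log2 scale) against the smallest of the 4 log2 ratios, in heads (left) and testes (right). Black rings are the 19 members with no overlap in any pair, blue points the other members and grey points the other eligible genes, of which 86 in heads and 85 in testes lie outside the axes. The 4 members with the largest ratios have head SDs above 1, and the ringed members lie low.

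The member with the largest smallest ratio was LOC101899942, on element E. It had 328, 110.4 and 10.2 CPM in CSrab heads at 18 °C (replicates 1 to 3), against 49.6, 14.3 and 2.61 CPM at 29 °C. In IsoCS heads it had 396, 29.4 and 538 CPM at 18 °C and 4.57, 1.49 and 35.5 CPM at 29 °C. Both head pairs overlap, because replicates of a group differed by more than 10-fold. CSrab testes gave 96.6, 13.7 and 2.66 CPM at 18 °C and 2.59, 7.87 and 0.568 CPM at 29 °C. IsoCS testes, the only pair without overlap, gave 15.7, 13.2 and 8.20 CPM at 18 °C and 1.02, 3.12 and 0.464 CPM at 29 °C. The 4 log2 ratios were 2.73, 4.48, 3.19 and 2.66, in the order CSrab heads, IsoCS heads, CSrab testes, IsoCS testes. Without replicate 1 of CSrab testes at 18 °C the smallest ratio was 1.05, and without replicate 1 of CSrab heads at 18 °C it was 1.42.

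The other 3 genes above 2-fold in all pairs showed the same unevenness in heads. LOC101896687, on element C, had 644, 236 and 81.4 CPM in CSrab heads at 18 °C and 238, 60.0 and 42.5 CPM at 29 °C. Its testis values were steadier and did not overlap, at 78.1, 60.3 and 64.1 CPM in CSrab at 18 °C and 37.0, 35.2 and 15.5 CPM at 29 °C. IsoCS testes had 95.8, 85.8 and 48.2 CPM at 18 °C and 24.3, 30.0 and 26.3 CPM at 29 °C. Its smallest ratio, 1.19, was 0.48 without CSrab heads at 18 °C replicate 1. LOC101898296, on element E, spanned 3723, 1020.1 and 23.1 CPM in CSrab heads at 18 °C and 1169.7, 47.9 and 37.7 CPM at 29 °C. Its pooled head SD of 3.02 was the largest of the members, it overlapped in all 4 pairs, and its smallest ratio of 1.11 was 0.32 without that same library. LOC101896904, on element E, had its smallest ratio, 1.07, in CSrab testes, where it had 47.7, 16.2 and 4.91 CPM at 18 °C and 24.3, 7.21 and 0.599 CPM at 29 °C. Those groups overlap, and the ratio was -0.015 without replicate 1 at 18 °C. In IsoCS testes its values were apart, with 145, 72.0 and 41.5 CPM at 18 °C and 5.32, 4.40 and 4.43 CPM at 29 °C, a ratio of 4.06.

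Ranks 5, 7 and 10 were also uneven. LOC101900798, on element E, had a smallest ratio of 0.98, with 18.9, 20.0 and 20.5 CPM in CSrab testes at 18 °C and 13.4, 12.2 and 3.78 CPM at 29 °C. In CSrab heads it had 10.5, 8.38 and 4.22 CPM at 18 °C and 3.74, 4.30 and 2.66 CPM at 29 °C, where the groups overlap by 1 library. LOC101887381, on element E, is abundant in heads, with 1718, 1186 and 264 CPM in CSrab at 18 °C and 915, 494 and 94.2 CPM at 29 °C. Its smallest ratio of 0.92, in CSrab testes, came from 20.9, 6.03 and 3.61 CPM at 18 °C and 7.49, 6.69 and 1.20 CPM at 29 °C. Without the first of those libraries it was -0.080, and with medians in place of means it was -0.14. LOC101887499, on element E, ran against the common head order, with its highest value in CSrab heads at 18 °C in replicate 3. It had 49.6, 77.0 and 153 CPM there and 11.98, 22.8 and 61.0 CPM at 29 °C. IsoCS heads had 36.2, 161 and 47.2 CPM at 18 °C and 71.4, 44.0 and 20.3 CPM at 29 °C, a ratio of 0.84 that was -0.12 without replicate 2 at 18 °C.

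Ranks 6, 8 and 9 differed from these in that no pair overlapped. LOC101888459, on element D, had 5.88, 9.51 and 13.0 CPM in CSrab heads at 18 °C and 2.68, 3.78 and 3.56 CPM at 29 °C. In IsoCS heads it had 7.85, 11.7 and 8.03 CPM at 18 °C and 4.94, 3.61 and 4.75 CPM at 29 °C. Each 18 °C head library of a strain thus lay above each of its 29 °C libraries. CSrab testes had 9.20, 8.78 and 6.96 CPM at 18 °C and 3.48, 4.19 and 3.44 CPM at 29 °C. IsoCS testes had 10.4, 10.9 and 11.2 CPM at 18 °C and 3.27, 2.00 and 8.30 CPM at 29 °C, the last being the nearest approach of the groups. The 4 log2 ratios, 1.37, 0.97, 1.07 and 1.17, were close to each other.

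LOC101893974, on element C, had its widest difference in CSrab heads, with 14.4, 19.8 and 34.9 CPM at 18 °C and 3.09, 2.11 and 5.58 CPM at 29 °C. IsoCS heads had 8.82, 11.3 and 7.14 CPM at 18 °C and 3.25, 4.23 and 3.08 CPM at 29 °C. The fold of means, with 0.5 CPM added to each, was 5.75 in CSrab heads and 2.38 in IsoCS heads. In testes the folds on that scale were 1.83 in CSrab, with means of 21.7 ± 2.62 CPM at 18 °C and 11.7 ± 2.05 CPM at 29 °C (SD, n = 3 each), and 1.93 in IsoCS. LOC101898760, on element D, had 39.0, 47.6 and 31.8 CPM in CSrab heads at 18 °C and 25.6, 24.3 and 15.3 CPM at 29 °C. In CSrab testes it had 7.35, 6.70 and 7.31 CPM at 18 °C and 2.52, 3.34 and 1.83 CPM at 29 °C. Its 4 folds of means, with 0.5 CPM added to each, lay between 1.80 and 2.49, and its pooled SDs of 0.27 in heads and 0.28 in testes were among the smaller of the leading members.

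The shape of the ratio over tissues varied among members. Heads of both strains, but not testes of both, exceeded 2-fold for 20 members, testes of both strains but not heads of both for 9, and neither tissue in both strains for 67. The 20 genes had median log2 ratios of 1.25 in CSrab heads and 1.47 in IsoCS heads, and of 0.64 in CSrab testes and 0.91 in IsoCS testes. The 9 genes had 0.72 and 0.84 in the heads and 1.21 and 1.25 in the testes of CSrab and IsoCS. The pooled head SD had a median of 1.02 in the first of these sets and 0.66 in the second.

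The members with the largest mean share of head counts were LOC101887696 and LOC101891927, both on element B. A share of counts grows with transcript length as well as with abundance, so levels are not compared between genes. LOC101887696 had 4244, 2461 and 1175 CPM in CSrab heads at 18 °C and 1562, 418 and 158 CPM at 29 °C. In IsoCS heads it had 4686, 2263 and 4249 CPM at 18 °C and 557, 155 and 2084 CPM at 29 °C. The IsoCS head groups were apart and the CSrab ones overlapped. Its smallest ratio, 0.45, was in CSrab testes, with 71.8, 51.2 and 32.2 CPM at 18 °C and 68.3, 28.8 and 15.9 CPM at 29 °C. LOC101891927 had 1060.2, 1872 and 899.9 CPM in CSrab heads at 18 °C and 1271, 727 and 415 CPM at 29 °C, which overlap. In IsoCS heads it had 1138, 2904 and 3167 CPM at 18 °C and 958, 621 and 769 CPM at 29 °C, which do not.

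In testes the largest mean shares were those of LOC101899903 and LOC101896242, also on element B. LOC101899903 had 541, 483 and 285 CPM in CSrab testes at 18 °C and 207, 274 and 291 CPM at 29 °C. IsoCS testes had 534, 462 and 541 CPM at 18 °C and 141, 159 and 429.7 CPM at 29 °C. The CSrab groups overlap by a single pair of libraries, and IsoCS replicate 3 at 29 °C stands far above the other 2. LOC101896242 had 416, 406 and 312 CPM in CSrab testes at 18 °C and 243, 297 and 188 CPM at 29 °C. In IsoCS testes it had 385, 324 and 427 CPM at 18 °C and 146, 102 and 355 CPM at 29 °C, with replicate 3 at 29 °C again the high one.

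Differences between strains did not enter the selection ratios and were tested. The 5 CPM minimum does depend on the level in each strain for members close to it, as stated below for single genes. The effect is CSrab over IsoCS averaged over both temperatures, by edgeR's quasi-likelihood test over all genes of a tissue, with Benjamini-Hochberg adjustment and a call at an adjusted p under 0.05. All 100 members passed the filter on low counts in each fit. The labels call the samples biological replicates and say no more of their source, so p-values measure the spread between these samples.

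In heads the strains differed for 2 members. By edgeR 0 members were higher in CSrab, where 6.8% of all 12347 genes tested were called, and 2 were lower, where 5.43% were. At an unadjusted p under 0.05, 1 member was higher and 11 were lower, against 750 higher and 656 lower among the 5548 candidates. The count lower was thus near the candidates' share, and the count higher was below it. The DESeq2 Wald test called 1 member higher and 6 lower, and no share over all genes is given for it here. The median log2 effect was -0.18 over the members and -0.01 over all candidates, and 24 members were positive, against 48.1% of candidates. Most members moved together among head replicates, as given above. They are therefore not separate observations of a strain effect, and nothing is read from this count. The members' larger head SD, given above, goes with the low count of calls, and its part in it was not tested.

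LOC101899432, on element C, had 18.8, 17.2 and 16.2 CPM in CSrab heads at 18 °C and 10.7, 8.71 and 11.5 CPM at 29 °C. In IsoCS heads it had 27.0, 19.9 and 27.0 CPM at 18 °C and 15.3, 14.5 and 16.8 CPM at 29 °C. At each temperature every CSrab head library lay below every IsoCS one. Its log2 effect was -0.47 ± 0.10 (SE, edgeR adjusted p = 0.0173, 6 libraries per strain), and without CSrab heads at 29 °C replicate 2 the call was lost with an effect of -0.42. LOC101896752, on element E, had 78.3, 71.9 and 67.0 CPM in CSrab heads at 18 °C and 44.2, 39.1 and 42.9 CPM at 29 °C. IsoCS heads had 104, 87.2 and 95.6 CPM at 18 °C and 51.5, 58.2 and 72.3 CPM at 29 °C, again without overlap between strains. Its log2 effect was -0.39 ± 0.10 (SE, edgeR adjusted p = 0.0325), and the call was lost without any 1 of 6 libraries, namely CSrab replicates 2 and 3 at 18 °C, CSrab replicate 2 at 29 °C, IsoCS replicates 1 and 3 at 18 °C and IsoCS replicate 3 at 29 °C. The count of members lower in CSrab heads was 5 without CSrab replicate 1 at 18 °C, 0 without CSrab replicate 2 at 29 °C and 1 without each of the other 5 libraries just named. Shares over all genes in these fits are not given here.

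In testes more members differed between strains, in both directions. CSrab was higher for 12 members, against 12.6% of all 13271 genes tested, and lower for 13, against 10.8%. Among the candidates 9.86% were higher and 7.68% lower, and the members' median log2 effect was 0.00. These shares are near the background in either direction. The counts changed when single libraries were left out, and no share over all genes is given for those fits. Whether the members moved more than other genes therefore cannot be told. Without IsoCS testes at 29 °C replicate 3 they were 24 higher and 17 lower. Without CSrab replicate 1 at 18 °C they were 7 and 7, and without CSrab replicate 2 at 18 °C 5 and 6. Without IsoCS replicate 1 at 18 °C they were 5 and 6, and without IsoCS replicate 2 at 18 °C 5 members were higher. Without CSrab replicate 3 at 18 °C 6 were lower, and 8 were lower without each of replicates 1 and 2 at 29 °C of either strain.

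The largest strain effects in testes among called members were those of LOC101897907 and LOC101895139. LOC101897907, on element C, had 11.1, 13.4 and 6.31 CPM in CSrab testes at 18 °C and 7.76, 8.76 and 2.87 CPM at 29 °C. IsoCS testes had 1.73, 4.61 and 1.07 CPM at 18 °C and 1.15, 1.08 and 0.898 CPM at 29 °C. At each temperature every CSrab library was above every IsoCS one, with a log2 effect of 2.31 ± 0.38 (SE, edgeR adjusted p = 0.00174). Its mean over all testis libraries, 5.06 CPM, was the lowest of the members. It met the 5 CPM minimum through CSrab only, since no IsoCS testis library reached 5 CPM. Its strain effect in testes is therefore not independent of the selection. In heads the same gene had 15.2, 9.40 and 4.47 CPM in CSrab at 18 °C and 7.35, 5.60 and 2.44 CPM at 29 °C. IsoCS heads had 12.5, 11.2 and 16.0 CPM at 18 °C and 5.27, 2.95 and 11.3 CPM at 29 °C, so the strains overlapped there, with a log2 effect of -0.32 ± 0.42 that did not pass (edgeR adjusted p = 0.669).

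LOC101895139, on element B, was steady among replicates in CSrab heads at 18 °C, with 235, 238 and 231 CPM, against 49.0, 26.8 and 31.4 CPM at 29 °C. IsoCS heads had 215, 99.5 and 195 CPM at 18 °C and 28.1, 40.1 and 26.7 CPM at 29 °C. The folds of means, with 0.5 CPM added to each, were 6.50 in CSrab and 5.31 in IsoCS, and the pooled head SD was 0.41 on the log2 scale. CSrab testes had 97.8, 103 and 103 CPM at 18 °C and 107, 59.0 and 43.6 CPM at 29 °C. IsoCS testes had 46.6, 42.0 and 49.5 CPM at 18 °C and 14.9, 15.8 and 20.6 CPM at 29 °C. The strains did not overlap in testes at either temperature, and the log2 effect was 1.60 ± 0.16 (SE, edgeR adjusted p = 8.69e-05). In CSrab testes, by contrast, replicate 1 at 29 °C lay above all 18 °C libraries.

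The largest effects in the other direction among called members were those of LOC101901700 and LOC101890337. LOC101901700, on element E, had 6.96, 7.44 and 6.16 CPM in CSrab testes at 18 °C and 3.31, 3.20 and 2.62 CPM at 29 °C. IsoCS testes had 14.8, 12.7 and 17.2 CPM at 18 °C and 11.9, 5.60 and 13.3 CPM at 29 °C. No CSrab library reached an IsoCS one of the same temperature, with a log2 effect of -1.39 ± 0.17 (SE, edgeR adjusted p = 0.000263). Its head effect of -1.46 ± 0.52 had nearly the same size but did not pass (edgeR adjusted p = 0.0966). Its head mean of 5.05 CPM was the lowest of the members, and no CSrab head library reached 5 CPM. The gene thus met the minimum in heads through IsoCS only, and its head effect is not independent of the selection. LOC101890337, on element B, had 22.2, 10.9 and 6.81 CPM in CSrab testes at 18 °C and 8.66, 10.6 and 6.72 CPM at 29 °C. IsoCS testes had 47.1, 25.9 and 26.1 CPM at 18 °C and 16.9, 11.96 and 14.8 CPM at 29 °C, all above CSrab at the same temperature, and the log2 effect was -1.03 ± 0.26 (SE, edgeR adjusted p = 0.0157).

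**Figure D5:**
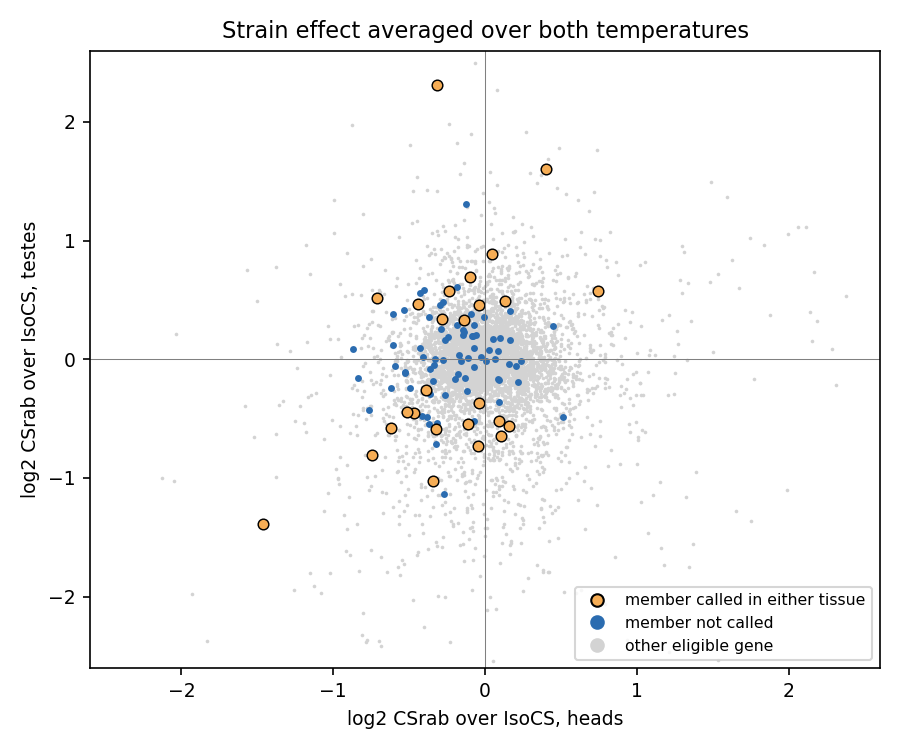
Log2 of CSrab over IsoCS, averaged over both temperatures, in testes (vertical) and heads (horizontal). Orange points are members called in either tissue, blue points the other members and grey points the other eligible genes, of which 34 lie outside the axes. LOC101897907, at 2.31 in testes and -0.32 in heads, is the highest member.

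Of the 2 members called for strain in heads, 1 was also called in testes. This was LOC101899432, with CSrab lower in both tissues, at -0.45 ± 0.13 in testes (edgeR adjusted p = 0.029). The test of the difference itself, over all 24 libraries, called 5 members whose strain effect was more positive in testis than in head, where 4.69% of all 14334 genes were, and 1 with a more negative one, where 6.54% were. LOC101897907 had a difference of 2.59 ± 0.57 on the log2 scale (edgeR adjusted p = 0.00646), and LOC101895139 one of 1.17 ± 0.27 (edgeR adjusted p = 0.00878). The other 3, named after their values were seen, were LOC101899934 at 0.94, LOC101899769 at 0.87 and LOC101901105 at 0.75. Like LOC101897907, LOC101901105 lay close to the 5 CPM testis minimum, with a testis mean of 5.35 CPM. It averaged 8.44 and 4.57 CPM in CSrab testes at 18 °C and 29 °C, and 5.73 and 2.67 CPM in IsoCS testes. The differences of both genes are therefore not fully independent of the selection.

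The more negative gene was LOC101898760, with a difference of -0.76 ± 0.22 (edgeR adjusted p = 0.0339) and a testis mean of 5.82 CPM, close to the 5 CPM minimum. That difference is therefore not fully independent of the selection. At 18 °C the gene averaged 7.12 ± 0.362 CPM in CSrab testes and 9.19 ± 2.22 CPM in IsoCS testes, and at 29 °C 2.56 ± 0.759 and 4.40 ± 0.702 CPM (SD, n = 3 each). Head means at 18 °C were 39.5 ± 7.89 CPM in CSrab and 38.8 ± 5.43 CPM in IsoCS, and at 29 °C 21.7 ± 5.64 and 19.9 ± 1.74 CPM. Its call was lost in 15 of the 24 fits that each left out 1 library. It stayed when that library was replicate 3 of CSrab heads at either temperature, IsoCS heads at 18 °C replicate 2, IsoCS heads at 29 °C replicate 3, CSrab testes at 18 °C replicate 3, CSrab testes at 29 °C replicate 2, IsoCS testes at 18 °C replicate 3 or IsoCS testes at 29 °C replicate 2 or 3. The count of more negative members was 3 without IsoCS testes at 29 °C replicate 3, and 2 without CSrab heads at 18 °C replicate 3, IsoCS heads at 29 °C replicate 3 or IsoCS testes at 18 °C replicate 3. The count of more positive members was 8 without CSrab heads at 29 °C replicate 1 or IsoCS testes at 29 °C replicate 3, and 3 without IsoCS heads at 18 °C replicate 3, CSrab testes at 18 °C replicate 3 or CSrab testes at 29 °C replicate 1. For these fits, too, shares over all genes are not given.

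Between tissues most members differed, as most genes did. Testis was higher for 33 members, against 45.9% of all genes tested, and lower for 51, against 41.3%. Among the candidates 42.3% were higher and 42.0% lower in testis. The members' median log2 of testis over head was -0.47, and that of all candidates was 0.00. The selection asked for at least 5 CPM in both tissues, which the candidates met too.

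The member most shifted to testis was LOC101887686, on element D. It had 179 ± 8.98 and 143 ± 25.4 CPM in CSrab and IsoCS testes at 18 °C, against 6.89 ± 0.556 and 5.67 ± 1.35 CPM in heads (SD, n = 3 each). At 29 °C it had 83.9 ± 31.8 and 73.9 ± 23.2 CPM in testes and 4.77 ± 1.49 and 3.44 ± 0.856 CPM in heads, and the log2 difference was 4.62 ± 0.14 (SE, edgeR adjusted p = 7.81e-17). LOC101896275, on element D, followed with 4.07 ± 0.28 (edgeR adjusted p = 4.63e-11). It had 194 ± 11.5 CPM in CSrab testes and 154 ± 27.4 CPM in IsoCS testes at 18 °C, against 9.53 ± 5.58 and 14.7 ± 5.99 CPM in heads.

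In the other direction stood LOC101898296, at -6.83 ± 0.95 (SE, edgeR adjusted p = 1.63e-06), and LOC101891927, at -6.43 ± 0.32 (edgeR adjusted p = 3.34e-13). LOC101898296 had 16.6 ± 12.5 CPM in CSrab testes and 8.51 ± 4.75 CPM in IsoCS testes at 18 °C, against 1589 ± 1915 and 1940.5 ± 1429.5 CPM in heads. LOC101891927 had 20.9 ± 15.6 and 20.9 ± 5.53 CPM in CSrab and IsoCS testes at 18 °C, against 1277 ± 521 and 2403 ± 1103 CPM in heads. The 4 members above 2-fold in all pairs were all lower in testis. Of the 20 above 2-fold in heads of both strains but not in testes of both, 13 were lower in testis and 4 higher. Of the 9 above 2-fold in testes of both strains but not in heads of both, 4 were lower and 3 higher. Beside these stand 51 lower and 33 higher of all 100 members, and 42.0% lower and 42.3% higher of the candidates. The sets are small and were formed on the selection's own ratios, so nothing is read from their counts.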

How the data were processed

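Per the labels, head and testis samples were homogenized in TRIzol, and stranded mRNA libraries were made from the RNA. The authors deposited 1 table per tissue of raw counts of reads per gene, which held whole numbers and no normalization. The submitters' processing notes name HISAT2, SAMtools, HTSeq and DESeq2. Their versions and settings, the genome build and the use of strand in counting are not given in the sources used here, so counts of near-identical gene copies and of overlapping genes are uncertain. Each of the 24 count columns was matched to a sample title, which left 0 per-sample columns unmatched. The deposited p-values of the strain-by-temperature interaction were not used.

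The members and the gene and marker lists were chosen with earlier results of these data known. CPM were computed from column totals and read in Python 3.11.15 (pandas 2.3.3, NumPy 2.4.6, matplotlib 3.10.9). Strain, tissue and difference tests used edgeR 4.0.16 with limma 3.58.1 in R 4.3.3 on the counts of all genes, with filterByExpr (minimum count 10, minimum total 15), TMM and 1 mean per group. Standard errors of log2 effects were taken as the effect over the root of its F value. The strain test within each tissue was checked on simulated counts, and the tissue and difference tests were not. Genes named are the 10 with the largest smallest ratio, 3 on each side of the limit, the 2 largest effects per direction among called members in each comparison and the 2 with the highest mean CPM per tissue. Shared protein identity, gene products and promoter features were not analysed here. Alternatives were TMM or DESeq2 size factors, other pseudocounts (0.1 and 1), other minima (1 and 10 CPM), medians, thinning, no filter, a replicate block, DESeq2 1.42.0 and leaving out each library.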

Additional observations from a re-analysis of the deposited data

Results flagged for a closer look

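The strain effect, CSrab over IsoCS averaged over both temperatures, differed between testis and head for 6 of the 100 members by edgeR's test of the difference itself. It was more positive in testis for 5 members, where 4.69% of all 14334 genes tested were, and more negative for 1, where 6.54% were. The first count was near the share of all genes, and the second was below it. The members were thus not called more often than genes at large. LOC101897907 had an effect higher by 2.59 on the log2 scale in testis than in head, with 2.31 ± 0.38 in testis and -0.32 ± 0.42 in head (SE). This gene met the 5 CPM testis minimum through CSrab only, so its difference is not independent of the selection. LOC101895139 had an effect higher by 1.17 in testis, with 1.60 ± 0.16 in testis and 0.40 ± 0.20 in head. LOC101898760 had a difference of -0.76, with -0.56 ± 0.17 in testis and 0.15 ± 0.17 in head. Its testis mean of 5.82 CPM is close to the 5 CPM minimum, so its difference is not fully independent of the selection either. Its call was lost in 15 of the 24 fits that left out 1 library.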

How the results depend on the processing

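The labels do not say what equal replicate numbers share, and the main fits did not pair the samples. The correlations given next cannot decide on pairing, since differently numbered libraries were not compared. Within-group deviations of same-numbered libraries correlated above 0.1 in 2 of 6 pairs of strains in heads (r from -0.60 to 0.31), 2 of 6 in testes (-0.39 to 0.41) and 4 of 12 pairs of tissues (-0.08 to 0.19). A replicate block left 0 members higher and 2 lower in CSrab heads, 11 and 10 in testes, and 2 members with a strain effect more negative in testis. The head call of LOC101896752 was lost under the replicate block, at -0.39. Of the 100 members, 61 were selected again with TMM sizes, 57 with DESeq2 size factors, 66 with a minimum of 1 CPM and 67 to 98 when 1 library was left out. The members' median ratio was 0.45 (TMM) and 0.43 (size factors) in CSrab testes, and 0.61 and 0.58 in IsoCS testes. Of the smallest ratios, that of LOC101896904 ran from -0.015 to 1.62, that of LOC101887381 from -0.080 to 1.07 and that of LOC101887499 from -0.12 to 1.25 when 1 library was left out, and that of LOC101887381 was -0.14 with medians. The DESeq2 Wald test called 1 member higher and 6 lower in CSrab heads, and 2 with a more negative strain effect in testis. Leaving out 1 library gave 0 to 5 members lower in CSrab heads, 5 to 24 higher and 6 to 17 lower in CSrab testes, 3 to 8 with a more positive and 0 to 3 with a more negative strain effect in testis. Calls between tissues moved least, from 32 to 35 higher and 48 to 53 lower in testis. Shares over all genes are not given for these alternative fits, so whether the members' calls changed more than those of other genes cannot be told. The cause of these changes was not tested.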

Other observations

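Chosen after its values were seen, LOC101894429 on element B had the widest ratio in CSrab heads, 2.90, and one of 2.61 in IsoCS heads, both resting on libraries in which the members were high together. It had 38.9, 10.2 and 1.34 CPM in CSrab heads at 18 °C (replicates 1 to 3) and 3.09, 1.00 and 1.40 CPM at 29 °C. IsoCS heads had 26.9, 2.25 and 25.0 CPM at 18 °C and 1.57, 1.49 and 4.58 CPM at 29 °C. Both head pairs overlap. Its testis ratios were 0.64 in CSrab and 0.63 in IsoCS.

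LOC101899396 on element D, also chosen afterwards, was the opposite case, with nearly equal log2 ratios of 0.74, 0.67, 0.65 and 0.67 in CSrab heads, IsoCS heads, CSrab testes and IsoCS testes and no overlap in any pair. It had 192, 154 and 137 CPM in CSrab heads at 18 °C and 116, 81.1 and 91.1 CPM at 29 °C. In IsoCS heads it had 189, 126 and 154 CPM at 18 °C and 87.7, 85.9 and 119.6 CPM at 29 °C. CSrab testes had 70.0, 69.9 and 61.5 CPM at 18 °C and 44.4, 44.9 and 38.2 CPM at 29 °C, and IsoCS testes had 62.9, 66.8 and 67.5 CPM at 18 °C and 39.9, 35.3 and 48.5 CPM at 29 °C.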
